A study of Mus musculus with 9 samples.

Results

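The aquaporin genes Aqp1, Aqp2, Aqp3, Aqp4, Aqp6, Aqp7 and Aqp11 were followed by mouse, group and cell type in single-cell RNA libraries of 9 mouse kidneys. The 7 genes were chosen by name, with earlier results of these data known, and all 7 were found among the 32427 genes of the matrices. Male C57BL/6 mice entered the study at 6 weeks of age. Control mice received intraperitoneal saline, and AKI-CKD mice received 4 weekly intraperitoneal injections of cisplatin at 8 mg/kg, a model of acute kidney injury (AKI) that passes into chronic kidney disease (CKD). AKI-CKD + EGT mice received the same cisplatin and also drank ergothioneine (EGT), a dietary thiol antioxidant, at 0.5 mg/mL, from 3 days before the first injection to the end. Tissue was taken after 8 weeks, and a longitudinal piece of a kidney was used for each library, with 3 samples per group, which the study describes as biological replicates and which are taken here as 1 mouse each.

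Aquaporins are membrane channels for water. Some members, the aquaglyceroporins, also pass glycerol. In the kidney, Aqp1 is known as the water channel of the proximal tubule (PT) and the thin descending limb, and of the descending vasa recta. The principal cells (PC) of the collecting duct take up water through Aqp2, which vasopressin moves to the luminal membrane, and release it through Aqp3 and Aqp4 on the opposite side. Aqp6 lies in vesicles of acid-secreting intercalated cells (IC-A), Aqp7 is an aquaglyceroporin of the last proximal segment (S3), and Aqp11 is an intracellular member of the proximal tubule.

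The promoters of 3 genes are shown because they serve neighbouring cells of one duct. Aqp2 and Aqp3 were both highest in PC, while Aqp6, which lies near Aqp2 on chromosome 15, was highest in IC-A. RefSeq (GRCm38.p6) gave the 250 bases before each start site, and capitals mark motif matches.
Aqp2, chr15:99578806-99579055, plus strand: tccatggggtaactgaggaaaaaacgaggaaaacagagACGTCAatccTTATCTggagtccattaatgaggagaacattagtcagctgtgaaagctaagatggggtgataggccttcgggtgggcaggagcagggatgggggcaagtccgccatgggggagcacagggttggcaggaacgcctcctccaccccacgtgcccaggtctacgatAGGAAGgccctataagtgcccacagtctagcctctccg
Aqp6, chr15:99600950-99601199, plus strand: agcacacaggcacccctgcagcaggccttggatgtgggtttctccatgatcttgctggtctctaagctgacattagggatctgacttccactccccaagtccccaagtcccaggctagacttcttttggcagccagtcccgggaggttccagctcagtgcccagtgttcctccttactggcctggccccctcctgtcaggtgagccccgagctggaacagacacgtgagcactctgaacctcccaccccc
Aqp3, chr4:41098184-41098433, minus strand: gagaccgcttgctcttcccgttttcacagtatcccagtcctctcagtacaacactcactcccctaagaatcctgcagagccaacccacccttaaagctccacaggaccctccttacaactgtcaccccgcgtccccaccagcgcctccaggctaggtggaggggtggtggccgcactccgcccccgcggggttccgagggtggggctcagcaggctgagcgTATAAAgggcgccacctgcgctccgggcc
Searched on both strands were TATAAA, known as the TATA box, TGACGT, the core of the cAMP response element, AGATAA for GATA factors, AGGAAG for ETS factors and TGTTTAC for forkhead factors. Aqp2 held ACGTCA, the reverse of the cAMP core, 212 bases before its start, the reverse GATA core TTATCT at 202 bases, and AGGAAG at 38 bases. Aqp3 held TATAAA 29 bases before its start. None of the 5 motifs was found in the Aqp6 window. Of 32851 promoters, 12.4% held the TATA box, 6.47% the cAMP core, 9.99% the GATA core, 29.5% the ETS core and 3.17% the forkhead core in a window of the same length. A match is a run of letters and not a measured binding site.

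The matrices held 70106161 to 101525691 UMIs (unique molecular identifiers, counts of captured molecules) per mouse. Of 216680 barcodes, 196925 cells were kept, with medians of 2534 to 2966 UMIs per cell. PT cells made up 83.8% of them, and PC, IC-A and thin limb cells made up 1.07%, 0.213% and 0.262%. Free RNA was heavy. The 12 PT markers had a median of 50.5% of their PT level in T cells and 57.6% in B cells, which should lack them, and the 9 PC markers had 0.86% and 0.88% of their PC level there. Between libraries, 19.7% to 29.2% of barcode names were shared. The names are serial numbers, and the log UMI totals behind shared names were unrelated, with r from -0.02 to 0.04.

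Levels are given as UMIs of the gene per 1000000 UMIs of the type (CPM). Each gene apart from Aqp7 and Aqp11 had a type that stood above the type with the next highest mean in every mouse. For Aqp4, PC still overlapped with the thin limb, where the highest mouse had 110 CPM and the lowest PC mouse 57.0 CPM. The types were clustered without the aquaporin genes but from the same cells, so these levels are a description with no test. Aqp1 was highest in the thin limb, Aqp2, Aqp3 and Aqp4 in PC, Aqp6 in IC-A, and Aqp7 and Aqp11 in PT.

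Aqp1 reached 4582 ± 1276 CPM in the thin limb (SD, n = 9), with a lowest, median and highest mouse of 2725, 4642 and 6331 CPM. PT S3 cells followed at 753 ± 231 CPM (n = 8) and peritubular endothelial cells at 719 ± 261 CPM (n = 9), and these ranges overlapped. Next came PT cells of no assigned segment at 273 ± 40.6 CPM and PT S1/S2 cells at 206 ± 28.4 CPM. PT S3 and PT S1/S2 each name a single cluster, of 264 and 20883 cells. T and B cells showed 135 and 154 CPM as means over mice. Pooled over mice they held 53.3% and 61.2% of the PT level, within the ranges of the 12 PT markers there (47.1% to 58.8% in T cells and 52.2% to 67.9% in B cells). In PC, without the cells of highest doublet score, Aqp1 had 36.0% of its PT level, just above the 26.6% to 34.7% of the markers.

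Among thin limb cells, Aqp1 differed with the cluster's markers, and not in one direction. The 343 cells with a UMI of Bst1 held 6403 Aqp1 CPM, and the 172 without held 1693 CPM. The 124 cells with an Epha7 UMI held 7455 CPM, against 4112 CPM in the other 391. With and without Slc14a2 the values were 5339 and 5074 CPM, but the thinned share of cells with an Aqp1 UMI was 52.9% and 78.4%. With and without Fst they were 4664 and 5214 CPM. Cells with a Bst1 UMI were also deeper, with a median of 3402 UMIs against 2375.5 in those without. By mouse, Aqp1 was higher in the cells with Bst1 in all 9 mice.

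Within PT, Aqp1 tended to be higher in clusters with more Slc7a13, the only S3 marker set against it. Over the 12 PT clusters it ranged from 133 to 717 CPM, and it was highest in the S3 cluster, which had the most Slc7a13 (955 CPM), the S3 amino acid transporter. Pearson's r of log2(CPM + 1) over these 12 clusters was 0.85 with Slc7a13 and -0.75 with Slc5a2, the glucose transporter of the early segments. For Aqp11 the values were 0.66 and -0.68, and for Aqp7 0.10 and -0.16. The clusters share the 9 libraries and were made from the same cells, so these values carry no test. Some clusters of no assigned segment also held much Slc7a13, at 704, 741 and 817 CPM, with Aqp1 at 340, 253 and 348 CPM. Another had more Slc5a2 than PT S1/S2 (1076 against 982 CPM), with Aqp1 at 138 CPM. The levels named PT S3 and PT S1/S2 are thus those of a single cluster each and not of the whole segments.

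In the endothelium, Aqp1 was highest in a small set of cells, while most of its UMIs lay outside that set. Of 2818 peritubular endothelial cells, 111 held a UMI of Slc14a1, the urea transporter of the descending vasa recta, and they carried 34.9% of the Aqp1 UMIs of the cluster. Their Aqp1 level was 5521 CPM over all mice, with 3528 to 7959 CPM per mouse from 4 to 30 cells. The 2707 cells without Slc14a1 carried the other 65.1% and had 495 CPM, with 306 to 799 CPM per mouse, still above the T and B cells. These ranges did not overlap. Without the cells of the highest doublet scores, which took 17.3% of this cluster, the Slc14a1-negative cells had 519 CPM. Lrp2, a PT marker, was at 544 CPM in the cells with Slc14a1 and 591 CPM in those without. The cluster that the marker list named vasa recta and arteriolar endothelium held Slc14a1 in 0 of 278 cells, so that this defining marker was absent, and its Aqp1 was 163 ± 48.4 CPM, near the level in T and B cells.

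**Figure D1:**
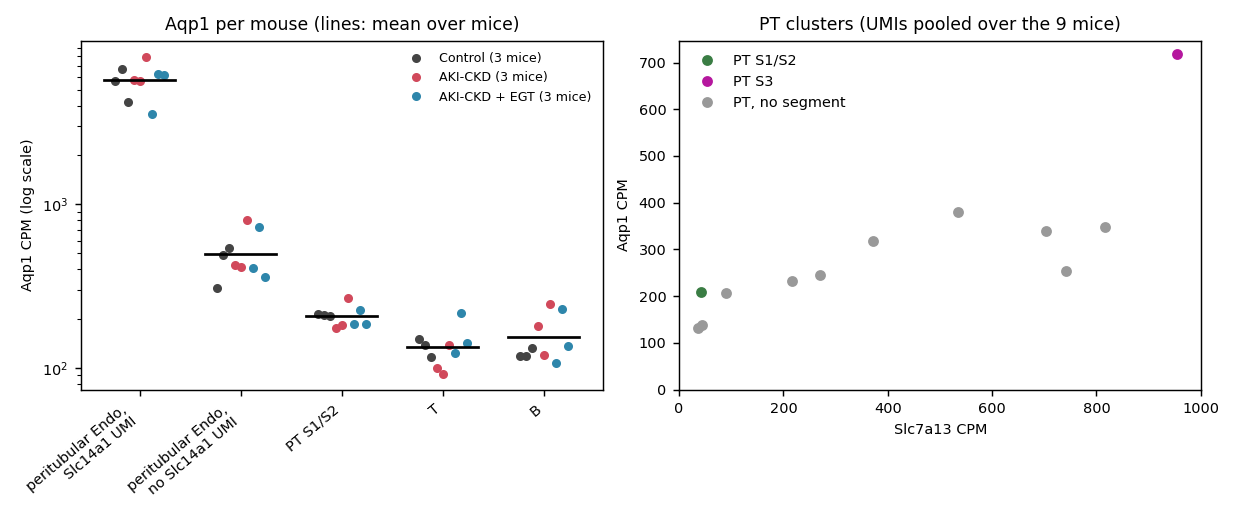
Left, Aqp1 level (CPM, log axis) per mouse in peritubular endothelial cells with and without an Slc14a1 UMI, PT S1/S2, T and B cells, with lines at the mean over mice and colours for the 3 groups. Right, Aqp1 against Slc7a13 (CPM, pooled over mice) in the 12 PT clusters. Endothelial cells with Slc14a1 sit at 3528 to 7959 CPM, above those without in every mouse, and the S3 cluster sits highest at right.

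Aqp2 was at 6459 ± 1555 CPM in PC (n = 9), and the lowest, median and highest mouse had 4528, 6087 and 8736 CPM. IC-A followed at 871 ± 523 CPM, ahead of the connecting tubule (CNT) at 189 ± 76.4 CPM and the bicarbonate-secreting intercalated cells (IC-B) at 184 ± 76.8 CPM. No PC mouse overlapped with any other type, while IC-A, CNT and IC-B overlapped. PC held 76.3% of all 65430 Aqp2 UMIs, and PT, with most of the cells, held 13.4%. After each cell was thinned to 1000 UMIs, 75.7 ± 5.72% of PC held an Aqp2 UMI (86.3% unthinned), against 1.76% of T cells and 2.38% of B cells.

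Aqp3, the aquaglyceroporin of the basolateral side, was at 782 ± 280.0 CPM in PC, with 451, 692 and 1326 CPM in the lowest, median and highest mouse. IC-A had 148 ± 42.9 CPM and IC-B 132 ± 38.5 CPM, which overlapped with each other, but each stood above CNT (22.1 ± 7.49 CPM) in every mouse. PT cells showed only 15.6 CPM but, through their number, held 55.9% of the 17547 Aqp3 UMIs, more than the 33.7% in PC. In T and B cells the mean was 11.5 and 12.7 CPM. The share of thinned PC with an Aqp3 UMI was 41.6 ± 8.11%, against 1.32% of T cells (65.2% and 3.21% unthinned).

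Aqp4, the other basolateral channel, was at 181 ± 117 CPM in PC, which held 79.1% of its 1715 UMIs. Its lowest, median and highest mouse had 57.0, 124 and 386 CPM, and 11.3 ± 5.55% of thinned PC held a UMI (19.2% unthinned). T cells held 0 Aqp4 UMIs (0 of 922 cells) and B cells 1. The next type, IC-A, was at 14.8 ± 14.6 CPM. Small Aqp4 means in the thin limb and PT S3 came from few mice. In the thin limb of AKI-CKD + EGT mouse 1, 12 of 15 Aqp4 UMIs were in 1 cell, and 56 of 64 Aqp2 UMIs were in 1 cell as well. In PT S3 of Control mouse 3, in contrast, 17 UMIs were spread over 13 of 80 cells, with at most 3 per cell.

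Single PC differed in how many of the 3 genes were detected in them. Of 2115 thinned PC, 461 held none of them, 767 held 1, 701 held 2 and 186 (8.79%) held all 3. Aqp3 was detected in 52.0% of PC with an Aqp2 UMI and in 9.53% of those without. Aqp4 was detected in 14.9% and 0.97% of them. Without thinning, 13.9%, 34.9% and 80.7% of PC held no UMI of Aqp2, Aqp3 and Aqp4. With few UMIs drawn per cell, a cell that expresses a gene can show none of it. How far this accounts for the split was not tested. These cells come from 9 mice and are not replicates, and the shares carry no test.

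**Figure D2:**
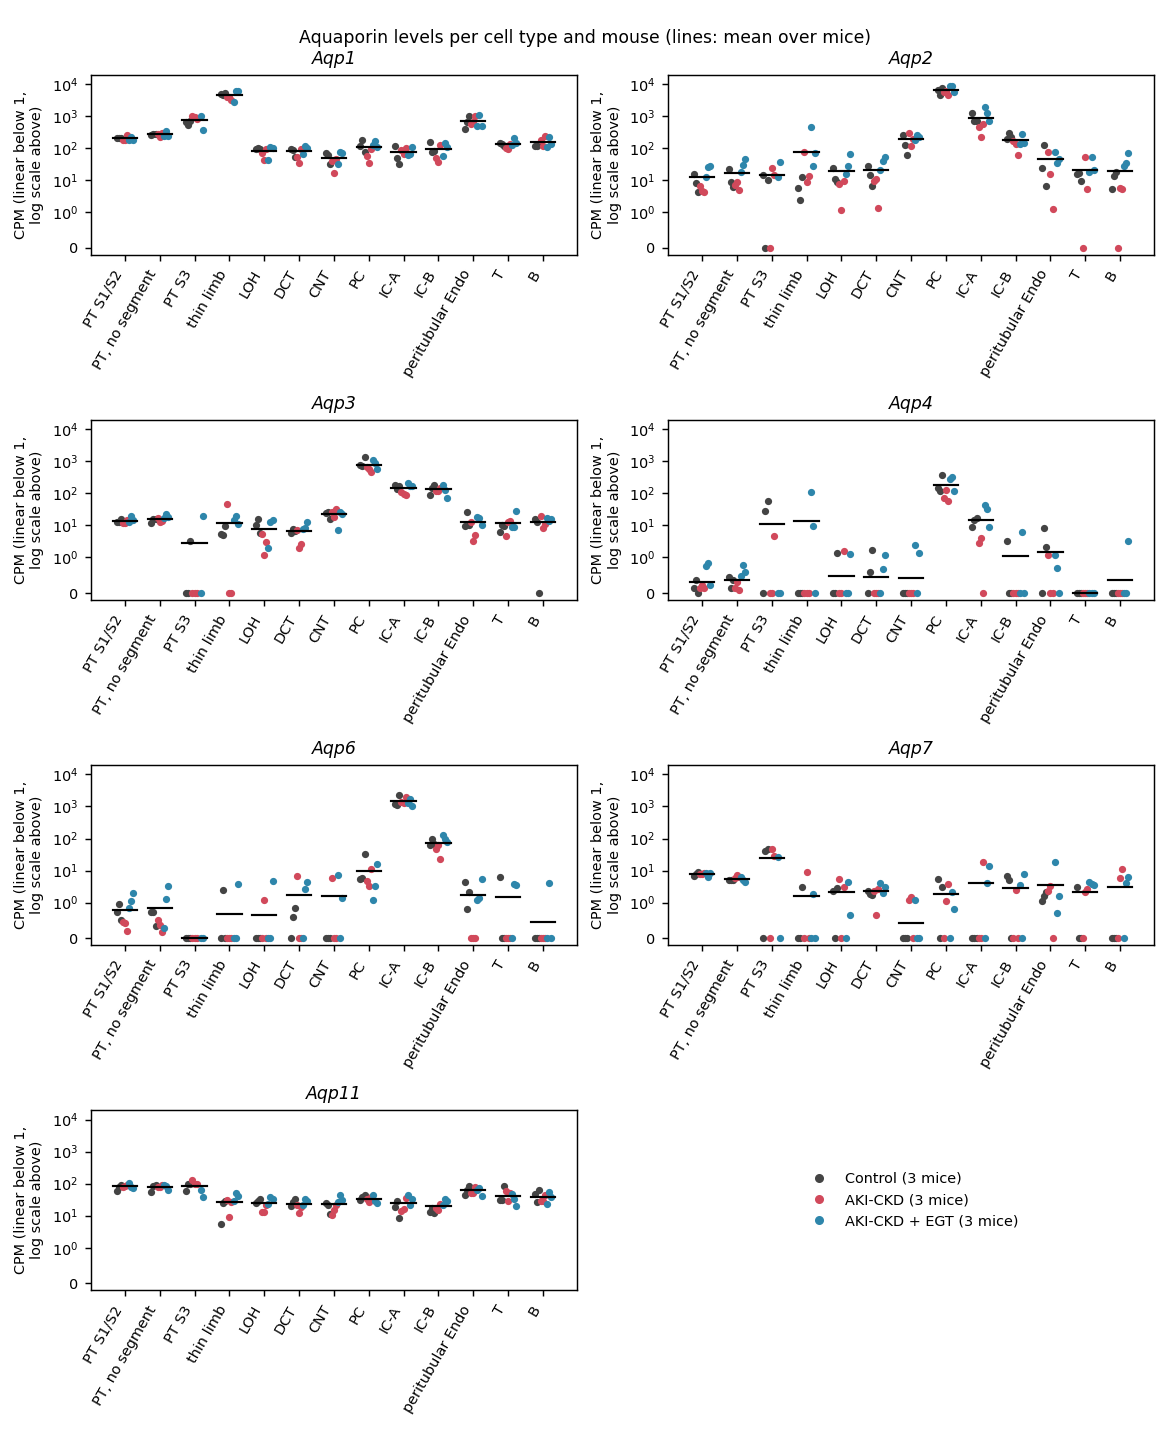
Level of each of the 7 genes (CPM, log axis above 1) in 13 cell types, 1 point per mouse with at least 10 cells of the type, coloured by group, with lines at the mean over mice. Aqp2, Aqp3 and Aqp4 peak in PC (means 6459, 782 and 181 CPM), Aqp6 in IC-A (1488 CPM) and Aqp1 in the thin limb (4582 CPM), while Aqp7 and Aqp11 have no type that stands clear of the rest. Aqp4 in PC overlaps with the thin limb, where the highest mouse has 110 CPM.

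The intercalated cells differed in how much of the PC genes they showed. In IC-A, the 9 PC markers had a median of 18.7% of their PC level (11.6% to 48.4%), and Aqp2, Aqp3 and Aqp4 had 12.4%, 18.7% and 7.47%. None of the 3 stood above the range of the markers there. In IC-B, the markers had 6.83% (2.11% to 26.5%), Aqp2 2.91%, Aqp4 0.59% and Aqp3 16.0%. Aqp3 was thus above the marker median and inside the marker range. A ratio within each mouse gave the comparison without reference to PC. Per 100 Aqp2 UMIs, PC held a median of 11.6 Aqp3 UMIs (9.16 to 17.7 over 9 mice), CNT 10.7 (4.08 to 25), IC-A 18.7 (11.3 to 43.6) and IC-B 67.4 (46.2 to 229). IC-B lay above each of these other 3 types in all 9 mice. The ratio in IC-B rests on 474 Aqp3 and 731 Aqp2 UMIs. Pooled over mice it was 64.8 in IC-B, and it was high as well in types that should lack both genes, with 112 in PT (9802 Aqp3 and 8784 Aqp2 UMIs), 44.2 in T cells (34 and 77 UMIs) and 51.9 in B cells (27 and 52 UMIs). The part of free RNA in the IC-B ratio was not tested.

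**Figure D3:**
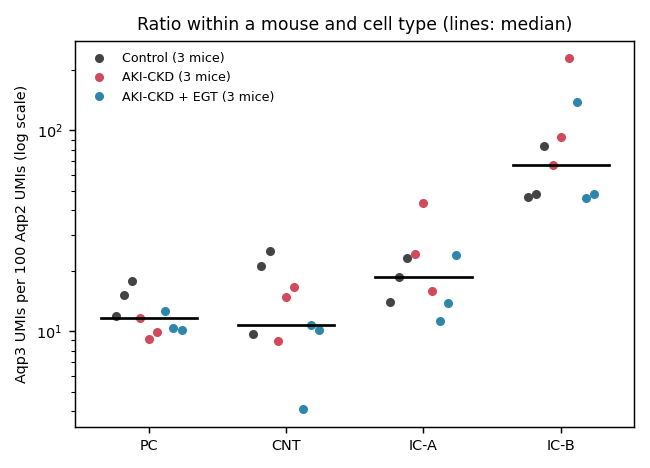
Aqp3 UMIs per 100 Aqp2 UMIs (log axis) within each mouse in PC, CNT, IC-A and IC-B, coloured by group, with lines at the median over 9 mice. IC-B (46.2 to 229) does not overlap with PC (9.16 to 17.7), CNT or IC-A (11.3 to 43.6).

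Aqp6 was at 1488 ± 457 CPM in IC-A (n = 9), with 1009, 1327 and 2367 CPM in the lowest, median and highest mouse. IC-B had 74.3 ± 31.5 CPM. IC-A, 0.213% of cells, held 72.0% of the 3576 Aqp6 UMIs, and 65.7 ± 15.5% of thinned IC-A held one, against 4.94% of IC-B and 0.79% of PC. Pooled over mice, IC-B held 5.30% of the IC-A level, within the 0% to 5.69% that the 4 IC-A markers had there. Within IC-A, Aqp2 was detected in 21.0% of thinned cells with Aqp6 and in 15.3% of those without. The podocyte mean of 17.6 CPM rested mostly on 1 cell of AKI-CKD mouse 1, which held 13 UMIs.

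Aqp7 was the lowest gene in its own main type. PT S1/S2 had 7.89 ± 0.88 CPM (n = 9), PT S3 23.9 ± 21.2 CPM (n = 8, 28 UMIs in all, with 0 in 3 of these mice) and PT of no segment 5.54 ± 0.82 CPM. The T and B cells had 2.17 and 3.00 CPM. The ranges of S3 and S1/S2 overlapped. The levels of these 2 clusters, which may hold only part of each segment, were not tested against each other. Aqp11 was similar in the PT segments as means over mice, with 85.8 ± 30.3 CPM in PT S3, 81.7 ± 11.5 CPM in PT S1/S2 and 79.7 ± 11.8 CPM in PT of no segment, and it ranged from 64.4 to 94.2 CPM over the 12 PT clusters. T and B cells had 42.3 and 39.1 CPM, or 48.3% and 49.9% of PT when pooled, against 47.1% to 58.8% and 52.2% to 67.9% for the PT markers. Of the 4058 Aqp7 and 55050 Aqp11 UMIs, 92.5% and 92.4% lay in PT.

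Of the other aquaporin genes, Aqp8 had 1536 UMIs in the kept cells, 92.1% of them in PT. Aqp9 had 66 UMIs, Aqp5 24, Aqp12 8 and Mip, the lens aquaporin, 1.

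Genes were ranked by how closely their mean log2(CPM + 1) followed each aquaporin over 21 cell types, out of 10807 genes. Closest to Aqp2 were Kcne1 (Pearson's r = 0.96), Hsd11b2, which inactivates glucocorticoids in PC, and Frmpd4. Closest to Aqp3 were Fxyd4 (0.93), a regulator of the sodium pump, Aqp2 itself (0.92) and Kcne1. Aqp4 was followed by Wnt9b (0.96), Col26a1 and Mgat4c. Aqp6 was followed by Cpsf4l (0.96), Slc4a1, the anion exchanger of IC-A (0.96), and Kctd16. Aqp1 was followed by Frzb (0.92), 9130024F11Rik and Gramd1b, Aqp7 by Ftcd (0.90), Tmem82 and Myo15b, and Aqp11 by Slc16a9 (0.91), Myo15b and Fga. Fxyd4, Kcne1, Hsd11b2 and Slc4a1 had also served as markers of the types, and the 21 types share their libraries. Between aquaporins, r was 0.85 for Aqp2 with Aqp4 and 0.81 for Aqp7 with Aqp11.

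The study asked how ergothioneine acts in this model, so AKI-CKD mice were set against Control mice (the cisplatin comparison) and AKI-CKD + EGT mice against AKI-CKD mice (the EGT comparison). Both use the same 3 AKI-CKD mice, so an unusual AKI-CKD value moves them in opposite directions. Sums of UMIs per mouse and type went into edgeR's quasi-likelihood test with Benjamini-Hochberg adjustment over all genes of a type. Each gene was followed in all kept cells and in each type where its level was at least 25% of its highest, which gave 22 tests per comparison. None of the 22 passed an adjusted p of 0.05 in either comparison. With no adjustment, 4 had a p under 0.05 in the cisplatin comparison and 9 in the EGT comparison. Over all genes that share ran from 5.99% in CNT to 16.5% in PC in the cisplatin comparison, and from 8.34% in CNT to 17.3% in PC in the EGT comparison. DESeq2 called 0 and 1 of them, the latter Aqp4 in all kept cells. There DESeq2 called 254 of 20144 genes in the EGT comparison, and edgeR called 1. Few genes of any kind were called by edgeR. In PC it was 0.0657% of 9138 genes in the cisplatin comparison and 0.0328% in the EGT comparison, and in IC-A 0.0238% and 0.736%. In PT S1/S2 it was 0.0143% and 0%, in the thin limb 0% and 0.0282%, in LOH 0% and 0.0616%, in IC-B 0% and 1.61%, and in CNT, the distal convoluted tubule and the endothelium 0% in both.

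Aqp4 in PC had the smallest adjusted p of the 22 tests in both comparisons. As TMM-scaled CPM, Control mice had 146, 125 and 347, AKI-CKD mice 76.6, 127 and 58.7, and AKI-CKD + EGT mice 280, 313 and 121. The log2 fold change was -1.21 ± 0.39 (SE) for the cisplatin comparison (adjusted p = 0.162) and 1.41 ± 0.39 for the EGT comparison (adjusted p = 0.120). Neither passed the threshold. The groups overlapped, since AKI-CKD mouse 2 lay above Control mouse 2 and AKI-CKD + EGT mouse 3. Without Control mouse 3, the highest of all, the first value was -0.59 (adjusted p = 0.520).

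Aqp3 in PC was at 765, 705 and 1193 TMM-scaled CPM in Control, at 698, 571 and 464 in AKI-CKD, and at 1107, 864 and 595 in AKI-CKD + EGT mice. AKI-CKD mice all lay below Control mice, by a log2 fold change of -0.62 ± 0.26 (adjusted p = 0.250). In this comparison 23.3% of all genes tested in PC had groups that did not overlap. That share, like those given below, was read on CPM by plain totals, and the members on TMM-scaled CPM. In the EGT comparison the log2 fold change of Aqp3 was 0.56 ± 0.26 (adjusted p = 0.271), and the groups overlapped. Without Control mouse 3 the first value was -0.33 (adjusted p = 0.616).

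Aqp2 in PC was at 6472, 4669 and 6738 TMM-scaled CPM in Control, 6021, 6235 and 4663 in AKI-CKD, and 8802, 8369 and 5910 in AKI-CKD + EGT mice. The log2 fold changes were -0.08 ± 0.25 (adjusted p = 0.896) and 0.45 ± 0.25 (adjusted p = 0.357), and the groups overlapped in both comparisons. The first value turned positive when AKI-CKD mouse 3 (0.06) or Control mouse 3 (0.03) was left out.

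**Figure D4:**
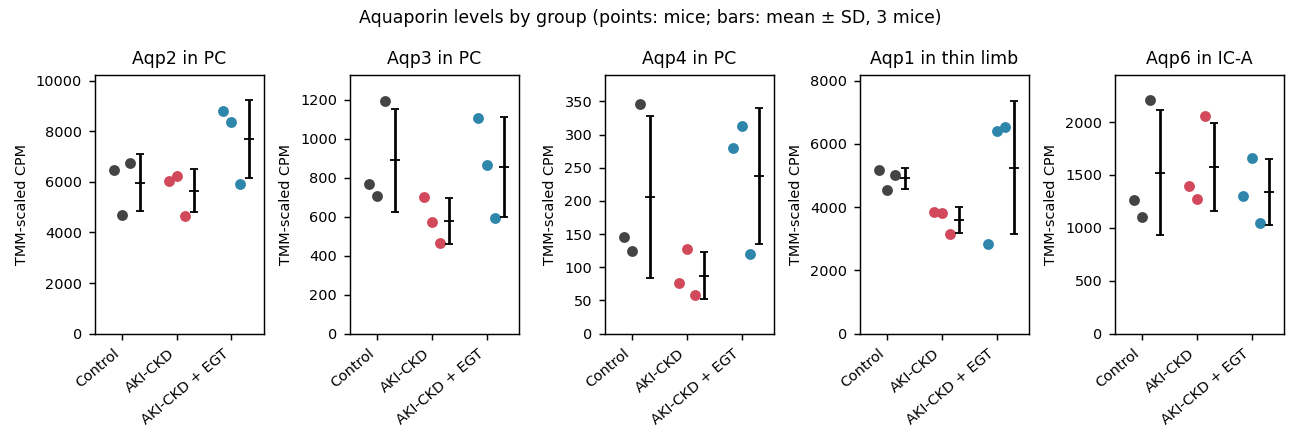
TMM-scaled CPM of Aqp2, Aqp3 and Aqp4 in PC, Aqp1 in the thin limb and Aqp6 in IC-A, 1 point per mouse, with bars for the mean ± SD of the 3 mice of each group. AKI-CKD mice lie below Control mice without overlap for Aqp3 in PC and Aqp1 in the thin limb, and no panel passed the adjusted threshold.

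A few PC of the AKI-CKD + EGT mice also carried Slc14a2, the urea transporter gene of the inner medullary collecting duct and the thin limb. In PC, Slc14a2 had 191, 157 and 33 UMIs in AKI-CKD + EGT mice 1, 2 and 3, against 0, 1 and 0 in AKI-CKD and 1, 1 and 0 in Control mice (adjusted p = 0.000861 for the EGT comparison). These UMIs lay in 9, 14 and 3 cells. Over all mice the 29 PC with an Slc14a2 UMI had 18448 Aqp2 CPM, 1676 Aqp4 CPM and 680 Aqp3 CPM, against 6300, 153 and 769 CPM in the other 2086 PC. Without them Aqp4 in AKI-CKD + EGT mouse 1 went from 277 to 148 CPM by plain totals, in mouse 2 from 324 to 261 CPM, and in mouse 3 from 120 to 113 CPM. The Aqp4 log2 fold change for the EGT comparison then fell from 1.41 to 0.95 (adjusted p = 0.217), that of Aqp2 from 0.45 to 0.37, and that of Aqp3 was 0.59. These cells were set apart after their values were seen. Aqp1 in PC gave -1.03 ± 0.34 and 1.09 ± 0.33 (adjusted p = 0.165 and 0.131). By plain totals, the PC with an Slc14a2 UMI held 1242 Aqp1 CPM in AKI-CKD + EGT mouse 1, and without them this mouse went from 126 to 72.1 CPM, below AKI-CKD mouse 3 at 91.3 CPM. The other AKI-CKD + EGT mice went from 163 to 152 CPM and stayed at 107 CPM. Of the 12 PT markers in PC, 0 were positive in the first comparison and 12 in the second, with 0 called in either. Their log2 fold changes had a median of -0.50 (lowest -0.93) and of 0.32 (highest 0.86), in the same directions as Aqp1. The part of PT RNA in the Aqp1 values of PC was not tested. How much inner medulla each piece of kidney brought into its library was not tested. The summed level of the 9 thin limb markers in PC, Slc14a2 among them, was 434 to 511 CPM in Control, 351 to 609 CPM in AKI-CKD and 370 to 951 CPM in AKI-CKD + EGT mice.

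**Figure D5:**
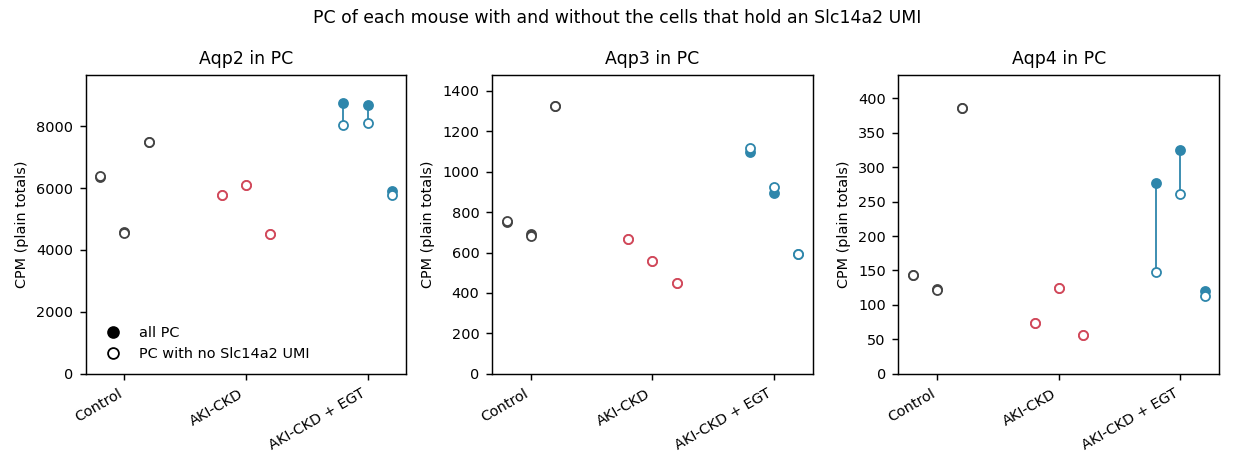
Aqp2, Aqp3 and Aqp4 in PC (CPM by plain totals) per mouse, with filled points for all PC and open points for PC with no Slc14a2 UMI, by group. The points part for Aqp4 in AKI-CKD + EGT mice 1 (277 and 148 CPM) and 2 (324 and 261 CPM), and lie almost on each other in Control and AKI-CKD mice.

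Aqp1 in the thin limb was at 5186, 4547 and 5024 TMM-scaled CPM in Control, at 3846, 3807 and 3135 in AKI-CKD, and at 2821, 6394 and 6541 in AKI-CKD + EGT mice. The thin limb had 35, 96 and 72 cells in Control, 18, 30 and 22 in AKI-CKD, and 33, 146 and 63 in AKI-CKD + EGT mice. AKI-CKD lay below Control with no overlap, by -0.45 ± 0.28 (adjusted p = 0.543), where 0% of 3549 genes were called and 18.6% did not overlap. The EGT comparison gave 0.55 ± 0.28 (adjusted p = 0.487), with mouse 1 below all AKI-CKD mice. The share of thin limb cells with a Bst1 UMI was 60%, 71.9% and 79.2% in Control, 66.7%, 56.7% and 59.1% in AKI-CKD, and 42.4%, 67.1% and 66.7% in AKI-CKD + EGT mice. The mouse with the least Aqp1 had the smallest share of all, and Control mouse 1 had the smallest share and the most Aqp1 of its group. Whether this share bears on the Aqp1 values was not tested. Within the cells with Bst1, Aqp1 was at 6563, 5684 and 5678 CPM (plain totals) in Control mice. AKI-CKD mice had 3995, 6020 and 4192 CPM there, so these groups overlapped. The 12 PT markers in the thin limb summed to 6599 to 11300 CPM in Control, 2057 to 10191 CPM in AKI-CKD and 8505 to 9292 CPM in AKI-CKD + EGT mice. Of these markers 0 of 12 were positive in the cisplatin comparison (median log2 fold change -0.57) and 11 of 12 in the EGT comparison (median 0.79), the same directions as Aqp1, with 0 called. Their part in the Aqp1 values was not tested. Below the level at which genes were followed, Aqp1 in PT gave 0.07 ± 0.21 and -0.20 ± 0.21 (adjusted p = 0.911 and 0.671), and its effects in S1/S2 and S3 did not pass a test of their difference by limma on 1170 genes, with -0.33 ± 0.34 and 0.31 ± 0.34 on the log2 scale (adjusted p = 0.819 and 0.735). That test includes 8 S3 cells of AKI-CKD + EGT mouse 1. In the endothelium Aqp1 gave 0.04 ± 0.35 and -0.08 ± 0.35 (adjusted p = 0.984 and 0.967).

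Aqp6 in IC-A was at 1259, 1106 and 2205 TMM-scaled CPM in Control, 1393, 1277 and 2054 in AKI-CKD, and 1305, 1663 and 1045 in AKI-CKD + EGT mice. Its log2 fold changes were 0.05 ± 0.27 and -0.22 ± 0.27 (adjusted p = 0.974 and 0.790), in a type with 23 to 66 cells per mouse.

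Of the proximal genes, Aqp7 in PT was at 5.13, 5.82 and 5.74 TMM-scaled CPM in Control, 6.29, 7.74 and 7.45 in AKI-CKD, and 6.59, 5.06 and 4.45 in AKI-CKD + EGT mice. AKI-CKD lay above Control with no overlap, by 0.36 ± 0.16 (adjusted p = 0.456), and the other comparison gave -0.42 ± 0.16 (adjusted p = 0.288). In PT, 18.7% of genes did not overlap and 0.0389% were called in the first comparison, and 0% were called in the second. Aqp11 in PT gave 0.20 ± 0.22 and -0.24 ± 0.22 (adjusted p = 0.737 and 0.630). Outside PT, Aqp11 in the loop of Henle (LOH) and the distal convoluted tubule was within the range of the PT markers. Pooled over mice it held 32.4% and 30.3% of its PT level there, inside the 28.7% to 37.6% and 27.6% to 35.5% of the 12 PT markers. In PC it held 41.1%, above the 29.1% to 38.2% of the markers, and 38.0% against 26.6% to 34.7% without cells of high doublet score. With that background, Aqp11 in LOH was at 25.2, 28.9 and 31.0 TMM-scaled CPM in Control, 13.1, 13.2 and 22.4 in AKI-CKD, and 23.6, 37.1 and 32.1 in AKI-CKD + EGT mice. The log2 fold changes were -0.80 ± 0.33 and 0.96 ± 0.33 (adjusted p = 0.495 and 0.207). AKI-CKD mice lay below both other groups with no overlap. In LOH, 16.3% and 16.6% of all genes had no overlap and 0% and 0.0616% were called. With clusters made without Harmony they were 0.00 and -0.04. Aqp11 gave -0.14 and -0.10 in PC and -0.05 and -0.06 in the endothelium, -0.28 and 1.14 in CNT, and -0.51 and 0.54 in the distal convoluted tubule, with no call.

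In all kept cells, a lower level can come from fewer cells of a type or from less RNA per cell, which these sums cannot tell apart. Aqp2 there was at 83.9, 58.6 and 64.3 TMM-scaled CPM in Control, 87.5, 92.0 and 37.4 in AKI-CKD, and 129, 137 and 138 in AKI-CKD + EGT mice. AKI-CKD + EGT lay above AKI-CKD with no overlap, by 0.89 ± 0.28 (adjusted p = 0.318). Aqp4 had 0.61 to 1.94 CPM in AKI-CKD and 2.50 to 4.69 CPM in AKI-CKD + EGT mice, with no overlap and a log2 fold change of 1.64 ± 0.45 (adjusted p = 0.318). In that comparison 22.7% of 20144 genes did not overlap and 0.00496% were called, against 15.5% and 0.0199% in the cisplatin comparison. The share of PC among kept cells was 0.97%, 0.95% and 0.78% in Control, 1.16%, 1.17% and 0.52% in AKI-CKD, and 1.23%, 1.34% and 1.87% in AKI-CKD + EGT mice. By an exact two-sided permutation test the share gave p = 0.1 for the EGT comparison, the smallest that 3 against 3 mice allow, and p = 1 for the cisplatin comparison. PT made up 83.5%, 85.6% and 87.9% of kept cells in Control and 89.3%, 83.0% and 90.7% in AKI-CKD mice. In AKI-CKD + EGT mice it was 84.3%, 79.8% and 64.6%, and mouse 3 kept 17255 of 23853 cells past the UMI and gene minimums. A larger PC share can also come from fewer PT cells, which was not tested.

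Aqp2 outside PC was examined after its values were seen, since it passed the threshold in types where it was not followed. Over all types in which a member was tested, 55 tests per comparison, 0 were called in the cisplatin comparison and 2 in the EGT comparison. Both were Aqp2, in IC-A with 1.62 ± 0.35 (adjusted p = 0.0263) and in all IC with 1.17 ± 0.28 (adjusted p = 0.0388). In those types 0.736% and 2.10% of genes were called. In IC-B, the other part of all IC, the value was 0.54 ± 0.31 (adjusted p = 0.404). Aqp2 in IC-A was at 1306, 734 and 661 TMM-scaled CPM in Control, 462, 228 and 570 in AKI-CKD, and 1893, 1206 and 735 in AKI-CKD + EGT mice. AKI-CKD was lowest with no overlap to either group. In IC-A, 15.2% of all genes had no overlap in the cisplatin comparison and 16.4% in the EGT comparison. Its value against Control was -1.14 ± 0.35 (adjusted p = 0.527). The call in IC-A was lost without AKI-CKD mouse 1 (1.74, adjusted p = 0.0565), AKI-CKD mouse 2 (1.35, 0.143) or AKI-CKD + EGT mouse 2 (1.69, 0.0501), and without the cells of high doublet score (1.28, 0.0652), with log2 fold changes given first. In all IC, Aqp2 was at 658, 409 and 400 TMM-scaled CPM in Control, 289, 174 and 196 in AKI-CKD, and 658, 581 and 273 in AKI-CKD + EGT mice. There AKI-CKD mouse 1 lay above AKI-CKD + EGT mouse 3, so these groups overlapped, while 19% of all genes had no overlap. The call in all IC was lost without AKI-CKD mouse 2 (1.05, adjusted p = 0.175), AKI-CKD mouse 3 (1.12, 0.126), AKI-CKD + EGT mouse 1 (0.93, 0.0532) or AKI-CKD + EGT mouse 2 (1.04, 0.119), and without the cells of high doublet score (0.87, 0.0876). Of the 9 PC markers, 7 were tested in IC-A. In the EGT comparison, 3 of the 7 were positive and 0 were called, with a median log2 fold change of -0.15. In the cisplatin comparison, 0 of the 7 were positive, with a median of -0.69. Their summed level in IC-A was 1466 to 2239 CPM in Control, 702 to 1403 CPM in AKI-CKD and 977 to 1621 CPM in AKI-CKD + EGT mice.

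In types that should lack Aqp2, its values in the EGT comparison were also positive, with no call. In PT the groups did not overlap, as for 24.9% of all genes there, 4004 of them higher and 484 lower. The log2 fold change was 1.91 ± 0.40 in PT (adjusted p = 0.224), 2.11 ± 0.51 in the distal convoluted tubule (adjusted p = 0.203) and 2.79 ± 0.61 in LOH (adjusted p = 0.0879). These levels were low. Plain totals averaged 5.99 CPM in LOH of AKI-CKD and 36.3 CPM in AKI-CKD + EGT mice. The distal convoluted tubule had 7.06 and 37.4 CPM, and IC-A 413 and 1296 CPM. The LOH value rested on 4, 1 and 6 UMIs in AKI-CKD and 8, 20 and 98 UMIs in AKI-CKD + EGT mice. By plain totals, T and B cells together had 22.3, 43.1 and 46.7 Aqp2 CPM in AKI-CKD + EGT, 0, 33.6 and 5.48 in AKI-CKD, and 11.7, 15.5 and 12.5 in Control mice, from 0 to 45 UMIs. The part of free Aqp2 RNA in the IC-A values was not tested beyond this. Before the 15% limit, mitochondrial UMIs made up 8.20%, 4.78% and 1.69% of UMIs in Control mice. They made up 3.77%, 3.46% and 2.37% in AKI-CKD, and 4.24%, 5.68% and 9.28% in AKI-CKD + EGT mice. Whether this share bears on the Aqp2 values was not tested.

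Lists of genes tied to aquaporins were read in PC, PT, IC and all kept cells. Of 15 vasopressin and cAMP signalling genes, 0 were called in either comparison (edgeR), with 2 of the 12 tested in PC under an unadjusted p of 0.05 in each comparison (16.5% and 17.3% of all genes in PC) and a median log2 fold change there of -0.04 and 0.06, against -0.02 and 0.03 over all genes. The smallest p were those of Ptger1, a prostaglandin E receptor, in PC (-0.93 ± 0.22, adjusted p = 0.0785) and Pde4d, a cAMP phosphodiesterase, in PC (-0.86 ± 0.22, adjusted p = 0.0993), both for the cisplatin comparison, and of Avpr2, the vasopressin receptor, in PT (1.16 ± 0.35, adjusted p = 0.238) for the EGT comparison. Avpr2 was near the floor in PT, at 0.29 to 1.04 TMM-scaled CPM per mouse, and the part of free RNA there was not tested. Of 16 vesicle traffic genes, 1 was called, Nedd4l, a ubiquitin ligase, which rose in IC in the EGT comparison (0.95 ± 0.23, adjusted p = 0.0359), where 2.10% of all genes were called. Of 11 transcription factors, 1 was called, Nfat5, which drives the response to high tonicity, and it rose in the same comparison in IC (1.24 ± 0.29, adjusted p = 0.0329). In PC, 3 of the 11 had an unadjusted p under 0.05 (edgeR) in the cisplatin comparison and 6 in the EGT comparison, with 0 called. Their median log2 fold change there was 0.22 and -0.28, against -0.02 and 0.03 over all genes. Each list was read in 4 populations and 2 comparisons. Of 9 tonicity and urea transport genes the one called was Slc14a2 in PC.

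No call was made among 8 glycerol genes, where Gk (glycerol kinase) in IC had -1.08 ± 0.26 (adjusted p = 0.156), Pnpla2, a triglyceride lipase, in IC had -0.74 ± 0.21 (adjusted p = 0.0689) and Gpd1 in PT had 0.40 ± 0.15 (adjusted p = 0.411). Nor was one made among 6 proximal transport genes, where Cldn2 in IC had 0.73 ± 0.31 (adjusted p = 0.247), Slc34a1 in all kept cells -0.41 ± 0.20 (adjusted p = 0.420) and Slc4a4 in PC -0.46 ± 0.26 (adjusted p = 0.382). The part of free PT RNA in the Cldn2 and Slc4a4 values was not tested. Among the other 5 aquaporins, Aqp9 in all kept cells had 0.95 ± 0.86 (adjusted p = 0.652) and Aqp8 in PT had 0.12 ± 0.47 (adjusted p = 0.931) for the EGT comparison. Gk, Gpd1 and Slc4a4 are given for the cisplatin comparison, and the rest of these for the EGT comparison. At an unadjusted p under 0.05, edgeR gave 2 of 7 glycerol genes in IC in each comparison and 0 and 1 of 6 proximal genes in IC (10.4% and 16.3% of all genes there), and 0 of the other aquaporins. Of 7 tubule injury markers, Cdkn1a, the p53 target p21, was higher in AKI-CKD than in Control mice in PC (3.04 ± 0.34, adjusted p = 0.000378) and PT (3.52 ± 0.47, adjusted p = 0.0384), and Clu, the secreted chaperone clusterin, fell in IC in the EGT comparison (-1.53 ± 0.27, adjusted p = 0.00874).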

How the data were processed

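Kidney cells of 9 mice were captured in droplets with poly(dT) primers, and the authors deposited raw UMI counts per gene and cell. The file headers name PISA 1.0 and the submitters' processing notes GRCm39; the aligner and annotation are not given in the sources used here. Groups and replicate numbers follow the labels, 3 samples each, described by the study as biological replicates and taken as 1 mouse each.

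Cells with at least 1000 UMIs, 500 genes and at most 15% mitochondrial UMIs were kept; the study states fewer cells with the same limits. Cells were clustered (scanpy 1.11.5, leidenalg 0.10.2, Python 3.11.15) on 2000 variable genes without aquaporins, 30 components and an own implementation of Harmony. Clusters were named from marker lists, by a naming rule set after the clusters were seen, and cells of no named cluster stay unnamed, so types may differ from the study's. Scrublet called 0 to 2 cells in each of 8 libraries and 3920 of 17196 in AKI-CKD + EGT mouse 1, so doublets were kept and the 6% of highest scores per library left out as an alternative. Counts were summed per mouse and type and tested with edgeR 4.0.16 (R 4.3.3; filterByExpr, TMM, quasi-likelihood test, Benjamini-Hochberg) over 9 mice in 1 fit. PT S3 was left out of the counted tests because 1 mouse had 8 cells. limma 3.58.1 tested the difference of effects, and DESeq2 1.42.0 was an alternative. Shares were compared by exact permutation tests. The fits were tested on simulated data: of 200 genes changed by a log2 fold change of 1 in the cisplatin comparison, 65 were recovered in PC (9138 genes), 33 in IC-A (4210), 105 in PT (18015) and 74 in all cells (20144), and at a log2 fold change of 2 they were 182, 172, 165 and 150. False calls, in the same order of types, were 7, 6, 1 and 7 at a log2 fold change of 1. At 2 they were 7, 8, 10 and 13.

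The members and gene lists were chosen with earlier results of these data known. All 7 genes were described in each type. Of each list, called genes were named, otherwise up to 3 with the smallest p, and the 3 genes most like each member among those with at least 20 CPM in a type. Intervals on UMI counts were not computed, and the number of cells limits the precision in rare types.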

Additional observations from a re-analysis of the deposited data

How the results depend on the processing

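The 2 called aquaporin values, Aqp2 in IC-A and in all IC in the EGT comparison, kept their sign under every alternative run. The calls among the listed genes, such as Slc14a2 and Cdkn1a, were not followed over these runs. The count of followed tests called, 0 in both comparisons, became 1 in the cisplatin comparison with no filter on low counts and with no Harmony, and 1 in the EGT comparison with DESeq2 and with no filter. These were Aqp4 in PC, with no filter (adjusted p = 0.000275 and 2.02e-06) and with no Harmony (-1.44, adjusted p = 0.0460), and Aqp4 in all kept cells with DESeq2 (adjusted p = 0.0289). Aqp2 in PT, not called in the EGT comparison, passed with DESeq2 (adjusted p = 0.000465), with no filter (0.00739) and without AKI-CKD + EGT mouse 1 (0.0443). No filter also called Aqp1 in PC in both comparisons (0.00628 and 0.00139) and Aqp2 in IC-A in the cisplatin comparison (0.0126). Aqp2 in all IC lost its call without high Scrublet scores (log2 fold change 0.87, adjusted p = 0.0876) and without AKI-CKD mouse 2 (1.05, 0.175), AKI-CKD mouse 3 (1.12, 0.126), AKI-CKD + EGT mouse 1 (0.93, 0.0532) or mouse 2 (1.04, 0.119). Over the alternatives Aqp4 in PC ranged from -1.57 to -0.59 and from 0.95 to 1.78. Counts of all genes called moved more, and the cause was not tested. In the cisplatin comparison, DESeq2 called 116 genes in PC, 2 in IC-A, 15 in the thin limb, 203 in PT and 129 in all kept cells, where edgeR called 6, 1, 0, 7 and 4. No filter gave 317, 30, 62, 81 and 29, and only the 6 mice compared gave 65 in PC and 0 in IC-A, PT and all cells. The 10% mitochondrial limit gave 3 in PC, and no Harmony 101 in PC and 0 in IC-A. RLE scaling, library sizes without mitochondrial, ribosomal protein and Malat1 counts, and clustering with aquaporin genes each gave 2 in IC-A, and leaving out high Scrublet scores 0. In the EGT comparison, edgeR called 3, 31, 1, 0 and 1. DESeq2 called 84 in PC, 14 in the thin limb, 447 in PT and 254 in all cells, and no filter 413, 122, 86, 217 and 5. The 6 mice alone gave 6 in PC, 47 in IC-A and 0 in the thin limb and all cells. The 10% limit gave 19 in IC-A and 0 in all cells, no Harmony 13, 62 and 2 in PC, IC-A and the thin limb, clustering with aquaporins 1 in PC, PC without an Slc14a2 UMI 1, the other library sizes 0 in the thin limb, and leaving out high Scrublet scores 0 in all cells. Leaving out each mouse in turn gave 2 to 118 and 2 to 665 in PC, 0 to 5 and 0 to 157 in IC-A, 0 to 1 and 0 to 2 in the thin limb, 0 to 12 and 0 to 192 in PT, and 0 to 11 and 0 to 1 in all cells, with 665, 157 and 192 all without AKI-CKD + EGT mouse 1. Replicate numbers did not pair the mice (lowest r per number from -0.45 to 0.04), and a replicate block gave 2 and 0 calls in PC and IC-A, 0 in PT and all cells in the cisplatin comparison, and 9 in IC-A and 0 in the thin limb and all cells for the other comparison. Without thinning, the share of cells with a UMI was 86.3%, 65.2% and 19.2% for Aqp2, Aqp3 and Aqp4 in PC, 87.7% for Aqp6 in IC-A, and 7.28% and 22.1% for Aqp7 and Aqp11 in PT S3.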
